A study of Rattus norvegicus with 23 samples.

Results

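Addition of Kupffer cells (KCs), the resident macrophages of the liver, to a layered rat liver culture can alter the hepatocytes and the liver sinusoidal endothelial cells (LSECs) in different ways. For each gene, the difference described here was the LSEC change minus the hepatocyte change, each change being the log2 level in the model with KCs minus that in the model without them. All 14217 genes measured with a probe set that named only that gene were tested, each through its probe set with the highest mean, so no gene was chosen by its response. With limma, the threshold for calling a difference was 0.05 after Benjamini-Hochberg adjustment, and it also applied to the LSEC change and for the hepatocyte change. Called differences were then sorted into responses in opposite directions, responses called in LSECs only, responses called in hepatocytes only, responses in the same direction but of different size, and differences in which neither change was called by itself.

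Hepatocytes carry out most of the synthesis, detoxification and nitrogen disposal of the liver, and LSECs form the fenestrated, scavenging wall of the sinusoid. KCs sit in the sinusoid against the LSECs, take up particles and endotoxin, and release cytokines that act on both neighbours. Stellate cells and fibroblasts, which were not named as a component of these cultures, make most of the fibrillar collagen of injured liver.

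The difference used 12 arrays, 3 in each of 4 groups, all collected on day 12: hepatocytes from the model of hepatocytes and LSECs (3DHL), hepatocytes from the model that also held KCs (3DHLK), and LSECs from each of these models. Hepatocytes and LSECs came from female Lewis rats, whose age was not given in the sources used here, and the KCs were bought frozen. In both models the hepatocytes lay under a chitosan and hyaluronic acid membrane on which the LSECs, and in 3DHLK the KCs, were seeded, and LSECs and KCs were recovered with magnetic beads carrying antibodies against SE-1 and CD163. No treatment other than the culture model separated the groups. The 4 groups were fitted together with hepatocyte monolayers (3 arrays), collagen sandwiches of hepatocytes (3 arrays), KCs recovered from 3DHLK (2 arrays) and KC monolayers at day 3 (3 arrays), 23 arrays in all. The sources used here did not say whether replicates came from separate rats or cultures, so the p-values reflect array-to-array spread that may be technical only. In these bulk samples, fewer cells of a type and less RNA per cell cannot be told apart.

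The labelled cell types were first set against marker lists. The LSEC arrays carried hepatocyte markers at the level of the hepatocyte arrays. The mean of 27 hepatocyte markers was 12.48 to 12.52 on the 3DHL LSEC arrays, 12.73 to 12.76 on the 3DHLK LSEC arrays, 12.20 to 12.29 on the 3DHL hepatocyte arrays and 12.27 to 12.43 on the 3DHLK hepatocyte arrays (log2 RMA values). Alb, which encodes albumin, read 14.45 to 14.56 on the 6 LSEC arrays and 14.46 to 14.66 on the 6 hepatocyte arrays. The 27 endothelial markers averaged 6.36 to 6.42 and 6.49 to 6.58 on the LSEC arrays of 3DHL and 3DHLK, against 6.27 to 6.36 and 6.68 to 6.73 on the hepatocyte arrays, and Vwf, a classical endothelial marker, averaged 5.81 and 5.98 on the LSEC arrays. The data therefore did not show the LSEC arrays as endothelial by these markers, and "LSEC" below means the fraction so labelled. Likewise "hepatocyte" below means the fraction labelled as hepatocytes, whatever cells it held. The arrays of 3DHLK hepatocytes were higher for 2 other lists. Their 26 stellate cell and fibroblast markers averaged 9.79 to 10.06, against 7.73 to 8.13 in 3DHL hepatocytes and 6.30 to 6.57 on all 6 LSEC arrays. Their 23 macrophage markers averaged 7.55 to 7.86, against 6.63 to 6.91 in 3DHL hepatocytes, 6.79 to 7.03 on the 2 arrays of KCs from 3DHLK and 12.04 to 12.34 on the KC monolayers.

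**Figure D1:**
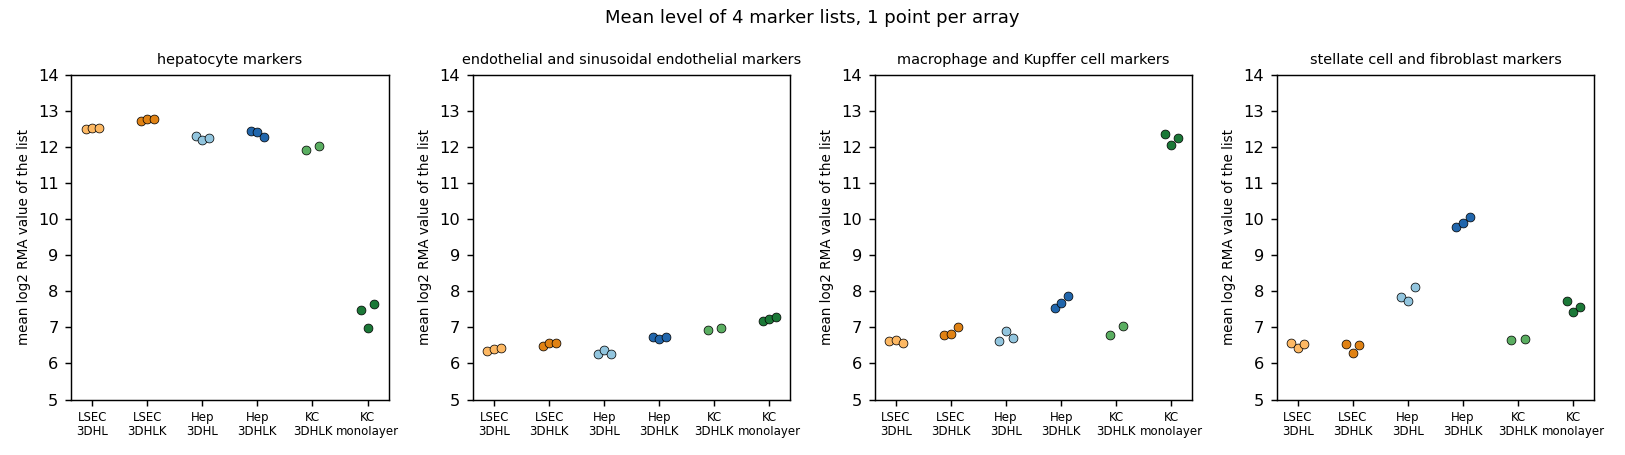
Mean log2 RMA value of 4 marker lists (vertical axes) on each array of the LSEC, hepatocyte and KC groups (horizontal axes), 1 point per array. Hepatocyte markers lay between 11.91 and 12.76 on every array from the 3D models, and the stellate cell and fibroblast markers stood apart in the hepatocytes of 3DHLK.

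The difference was called for 1467 of 14217 genes, 499 higher in LSECs (3.51%) and 968 lower in LSECs (6.81%), with 3428 genes at an unadjusted p under 0.05. The LSEC change was called for 509 genes that rose (3.58%) and 553 that fell (3.89%). The hepatocyte change was called for 1097 genes that rose (7.72%) and 534 that fell (3.76%). Over all genes the SD of the change was 0.32 log2 units in LSECs and 0.50 in hepatocytes, and the changes had a Pearson correlation of 0.06 and a Spearman correlation of 0.08 across genes, which are not independent replicates. In 1033 of the called differences the estimates had opposite signs, but only 63 genes (0.443%) had both changes called in opposite directions. Another 400 genes (2.81%) were called in LSECs only and 785 (5.52%) in hepatocytes only. A missed call is not an absent response, so the interval is given as well. The 95% interval of the hepatocyte change lay within -1 to 1 for 206 of the 210 genes that rose in LSECs only, and for 178 of the 190 that fell. The 95% interval of the LSEC change did so for 582 of the 654 genes that rose in hepatocytes only and for 130 of the 131 that fell. Response sizes differed between classes, with a median change of 1.37 among the 654 genes up in hepatocytes only and of 0.72 among the 210 genes up in LSECs only. The medians were -0.87 among the 190 genes down in LSECs only and -0.51 among the 131 down in hepatocytes only. Apart from 1.37, these medians lie inside the bound of 1. An interval within that bound therefore does not show a response confined to 1 fraction.

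The spread of the KC monolayer arrays, which enter the fit but not the comparison, weighed on these counts. Their median SD over genes was 0.32 log2 units, against 0.10 to 0.15 in the 4 groups compared. Without them, 3042 differences were called, 1632 higher and 1410 lower in LSECs, so that the share of higher calls was 53.6% in place of 34.0%. All 1467 calls of the fit to 23 arrays were among them, with the same sign. The opposite class then held 247 genes, 96 of them up in LSECs, and included all 63. Centring each array on a list of housekeeping genes moved the median difference over all genes from 0.11 to 0.004, a shift of -0.11, and the share of higher calls to 19.8%. The number of differences higher in LSECs came to 262 to 312 when any of 7 arrays was left out (replicates 1 and 2 of 3DHL hepatocytes, replicate 3 of 3DHLK hepatocytes, replicates 1 and 2 of 3DHL LSECs, and replicates 2 and 3 of 3DHLK LSECs), and the lower calls to 751 to 979 over all 12.

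**Figure D2:**
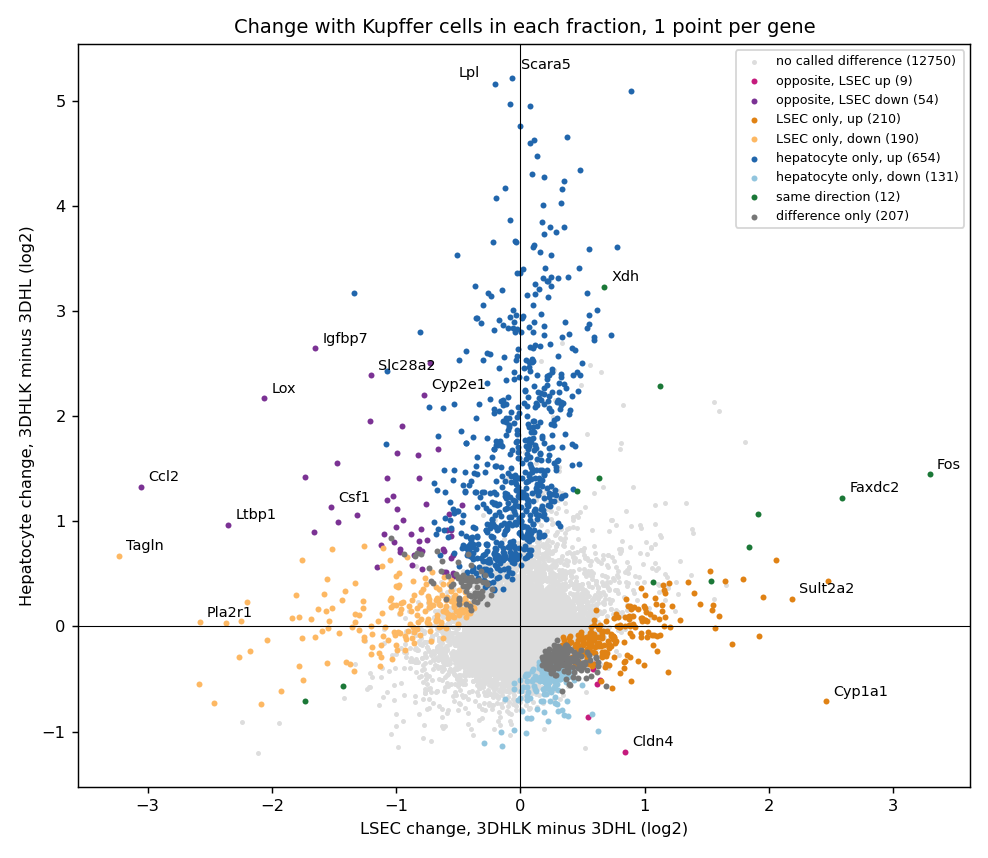
Log2 change with KCs in LSECs (horizontal axis) and in hepatocytes (vertical axis), 1 point per gene, coloured by class with the number of genes in brackets. The 54 genes that fell in LSECs and rose in hepatocytes lie at the upper left, and the 654 genes that rose in hepatocytes only form the vertical arm.

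Of the 63 genes with opposite responses, 54 fell in LSECs and rose in hepatocytes. These 54 included 3 of 41 matrix genes, 3 of 43 actin and focal adhesion genes, 2 of 25 TGF-beta genes and 1 of 28 chemokines. The hepatocyte marker, stellate cell, inflammatory cytokine, cytochrome P450, glutathione and acute phase lists each held 1, and some genes are in more than 1 list. Over all 14217 genes, 54 were in this orientation, and the 63 of both orientations make up 0.443%. Arrays of the compared groups did not overlap in either fraction for any of the 63, which held for 2064 genes (14.5%) in any direction of the changes. The class shrank from 63 to 33 genes without replicate 1 of 3DHL LSECs, to 38 without replicate 2 or 3 of 3DHLK LSECs, to 41 without replicate 2 and to 42 without replicate 1 of 3DHL hepatocytes.

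Lox encodes lysyl oxidase, the enzyme that cross-links collagen and elastin. Its level was 9.54, 9.08 and 9.20 on the 3DHL LSEC arrays and 7.92, 6.51 and 7.19 on the 3DHLK LSEC arrays. In hepatocytes it was 9.91, 10.07 and 9.90 without KCs and 12.18, 12.06 and 12.15 with them. The LSEC change was thus -2.06 ± 0.37 (SE, n = 3 per group) and the hepatocyte change 2.17 ± 0.37, a difference of -4.23 (limma, adjusted p = 1e-05). A second probe set of Lox gave -2.79 and 2.31.

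Igfbp7, a secreted insulin-like growth factor binding protein, read 9.59, 9.56 and 9.70 in 3DHL LSECs and 8.63, 7.76 and 7.5 in 3DHLK LSECs. It read 10.80, 10.49 and 11.28 in 3DHL hepatocytes and 13.37, 13.50 and 13.65 in 3DHLK hepatocytes. All 3 arrays with KCs were below all 3 without them in LSECs and above them in hepatocytes, and the difference was -4.30 ± 0.40 (limma, adjusted p = 2.1e-07).

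Serpinh1, the collagen chaperone of the endoplasmic reticulum, changed by -1.21 in LSECs and 1.95 in hepatocytes. The LSEC fall was not called without any of replicates 1 to 3 of 3DHL LSECs or 2 and 3 of 3DHLK LSECs (-1.32 to -1.01, adjusted p of 0.054 to 0.164), and a second, dim probe set gave -0.04 and 0.43. Hspg2, which encodes the basement membrane proteoglycan perlecan, and Timp2, an inhibitor of matrix metalloproteinases, were the other opposite genes of the matrix list beside Lox. Hspg2 changed by -0.79 in LSECs and 0.72 in hepatocytes. Timp2 fell from 8.76 to 7.76 in LSECs and rose from 11.45 to 13.10 in hepatocytes (group means). Of the 41 matrix and basement membrane genes measured, 25 had a called difference lower in LSECs and 0 a higher one, with a median difference of -1.82 against 0.11 over all genes. In hepatocytes 29 of them rose, and in LSECs 5 fell, so the list differed mainly by the hepatocyte fraction. Of all genes, 6.81% had a difference called lower in LSECs, 7.72% rose in hepatocytes and 3.89% fell in LSECs.

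Ltbp1 encodes a protein that holds latent TGF-beta in the matrix. It fell from 8.60, 8.42 and 8.20 in 3DHL LSECs to 6.59, 5.86 and 5.70 in 3DHLK LSECs, and rose from 9.94, 9.87 and 10.06 to 11.03, 10.81 and 10.93 in hepatocytes, a difference of -3.32 ± 0.30 (limma, adjusted p = 1.28e-07). Tgfb3, which encodes a TGF-beta ligand, changed by -1.07 in LSECs and 1.41 in hepatocytes, and its LSEC fall was not called with any of those same 5 LSEC arrays of Serpinh1 left out (-1.17 to -0.82, adjusted p of 0.0761 to 0.226). Among 25 genes of the TGF-beta pathway, 11 had a called difference, all lower in LSECs, with 4 that fell in LSECs and 8 that rose in hepatocytes. The shares over all genes were 6.81% for lower differences, 3.89% for LSEC falls and 7.72% for hepatocyte rises. Ltbp2, a related matrix protein, rose by 2.66 in hepatocytes and stood at 8.01 and 8.09 in LSECs.

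Of 28 chemokines, 1 was in the opposite class. It was Ccl2, the chemokine that recruits monocytes, which averaged 10.08 ± 0.12 (SD, n = 3) in 3DHL LSECs and read 8.24, 6.28 and 6.57 in 3DHLK LSECs. In hepatocytes it was 10.01, 9.84 and 9.79 without KCs and 10.64, 11.50 and 11.48 with them. Its difference of -4.38 ± 0.47 was the largest in the opposite class (limma, adjusted p = 1.7e-06), and its hepatocyte change lost the call without replicate 3 of 3DHLK hepatocytes (1.19, adjusted p = 0.0561). Csf1, the growth factor on which macrophages depend, was 10.27, 9.79 and 10.17 in 3DHL LSECs, 8.78, 8.35 and 8.52 in 3DHLK LSECs, 9.70, 9.92 and 9.79 in 3DHL hepatocytes and 10.74, 10.91 and 11.15 in 3DHLK hepatocytes. Of 3 further Csf1 probe sets, 2 gave the same opposite calls and the dimmest gave -0.07 and 0.04. F3, the tissue factor that starts coagulation, changed by -1.07 in LSECs and 1.20 in hepatocytes.

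Slc28a2, a sodium-coupled nucleoside transporter, was 8.85, 8.85 and 8.38 in 3DHL LSECs, 7.48, 7.72 and 7.28 in 3DHLK LSECs, 7.5, 7.67 and 7.94 in 3DHL hepatocytes and 10.05, 10.21 and 10.03 in 3DHLK hepatocytes. Without KCs it was higher in LSECs than in hepatocytes, and with KCs the order of the fractions was turned. Avpr1a, the vasopressin receptor of liver, had the same order, at 8.78 to 9.30 and 7.16 to 7.76 in LSECs and 6.88 to 7.40 and 8.51 to 8.79 in hepatocytes. Scd2, a stearoyl-CoA desaturase, changed by -1.48 and 1.56, and 2 of its 3 other probe sets gave the same opposite calls.

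Cyp2e1, the ethanol- and acetaminophen-oxidising cytochrome P450, was the only hepatocyte marker in the opposite class. It read 10.09, 9.84 and 10.05 in 3DHL LSECs and 9.34, 9.27 and 9.05 in 3DHLK LSECs, and 7.51, 7.38 and 8.09 in 3DHL hepatocytes and 9.73, 10.13 and 9.73 in 3DHLK hepatocytes. The difference was -2.98 ± 0.28 (limma, adjusted p = 2.55e-07), but the LSEC fall of 0.77 lost its call without replicate 1 or 3 of 3DHL LSECs or replicate 2 or 3 of 3DHLK LSECs (-0.80 to -0.69, adjusted p of 0.0517 to 0.0986). Gpx3, the secreted glutathione peroxidase, changed by -1.13 and 0.77, with the hepatocyte call lost without any replicate of 3DHL hepatocytes or without replicate 1 or 3 of 3DHLK hepatocytes (0.69 to 0.79, adjusted p of 0.0874 to 0.138).

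**Figure D3:**
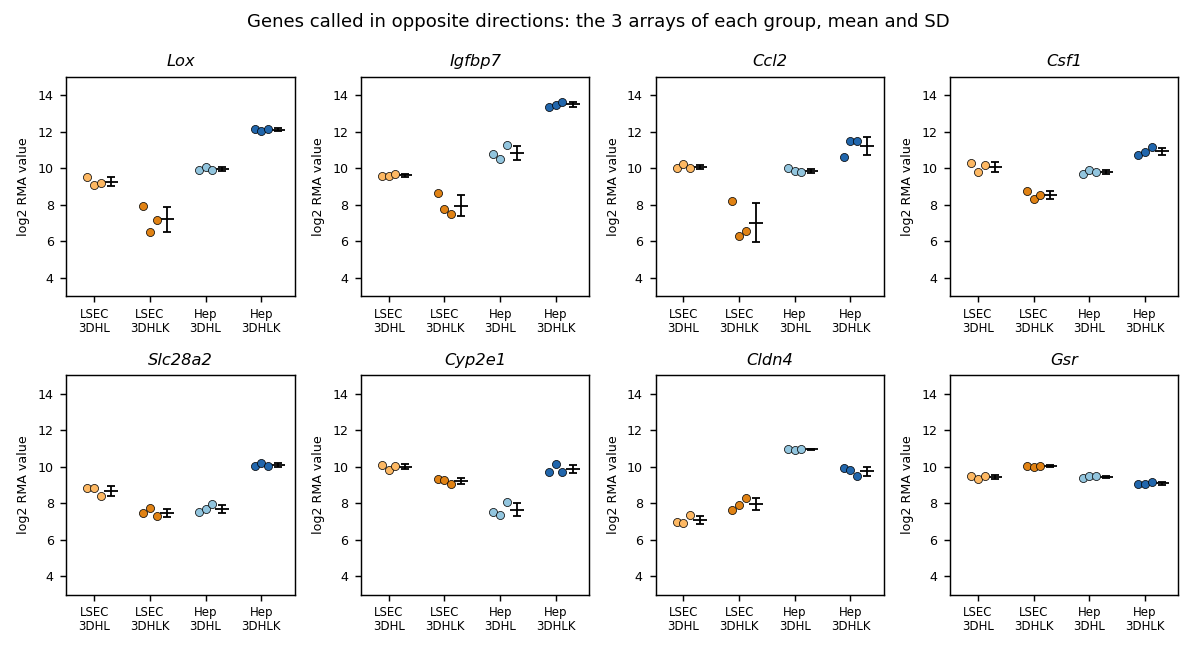
Log2 RMA values of 8 genes called in opposite directions; each point is 1 of 3 arrays of a group, and the bar beside it is the mean with its SD. In Lox, Igfbp7, Ccl2, Csf1, Slc28a2 and Cyp2e1 the LSEC arrays are lower with KCs and the hepatocyte arrays higher, and in Cldn4 and Gsr the reverse holds.

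Only 9 genes rose in LSECs and fell in hepatocytes, and their changes were smaller, with medians of 0.58 in LSECs and -0.45 in hepatocytes. Cldn4, a tight junction protein, was 6.98, 6.94 and 7.35 in 3DHL LSECs and 7.64, 7.89 and 8.29 in 3DHLK LSECs, against 10.96, 10.93 and 10.95 in 3DHL hepatocytes and 9.96, 9.83 and 9.47 in 3DHLK hepatocytes. Its level stayed higher in hepatocytes in both models while the gap between fractions narrowed. Gsr, the glutathione reductase that regenerates reduced glutathione, rose from between 9.31 and 9.50 in 3DHL LSECs to between 9.97 and 10.07 in 3DHLK LSECs and fell from between 9.37 and 9.49 to between 9.05 and 9.16 in hepatocytes. Pfkfb2, which sets the level of a glycolytic activator, had a difference of 1.40. Its 3 other probe sets gave a called 1.63 and an uncalled 0.38 and -0.16, and their LSEC changes of 0.61, 0.02 and -0.15 were not called. The others were Gnpnat1 (hexosamine synthesis), Acadsb (branched-chain acyl-CoA oxidation), Dgat2 (triglyceride synthesis), Apeg3, Plekhb1 and Mpp4, with differences of 0.67 to 1.16. All 9 kept the called difference under every alternative that tested them, but other single probe sets were not among these alternatives. A second bright Dgat2 probe set had no call, with a difference of 0.57 (limma, adjusted p = 0.0621) and changes of 0.29 and -0.28. The other Apeg3 probe sets kept the called difference, with a called LSEC rise of 0.73 and uncalled ones of 0.44 and 0.43. All 9 lost the call of an LSEC or a hepatocyte change with at least 1 array left out. So did 3 of the 10 genes that fell in LSECs with the largest smaller change (Ccl2, Serpinh1 and Tgfb3), and Cyp2e1 and Gpx3 beside them. For Cldn4 the LSEC rise was 0.67 to 0.87 (adjusted p of 0.0637 to 0.157) without replicate 1 or 2 of 3DHL LSECs or replicate 2 or 3 of 3DHLK LSECs. For Gsr the hepatocyte fall was not called without replicate 2 or 3 of 3DHL hepatocytes or replicate 1 of 3DHLK hepatocytes (-0.34, adjusted p of 0.0533 to 0.0739). That fall also lost its call with cyclic loess (-0.27, limma adjusted p = 0.115) and with housekeeping centring (-0.30, limma adjusted p = 0.0911). Apeg3, Plekhb1, Acadsb, Dgat2 and Mpp4 likewise lost the call of an LSEC or a hepatocyte change with housekeeping centring.

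Among the 210 genes that rose in LSECs only were members of several metabolic lists. Over all genes, the difference was called higher in LSECs for 3.51% and lower for 6.81%, and the LSEC change rose for 3.58%. In cholesterol biosynthesis, 10 of 21 measured genes had a called difference, all higher in LSECs, 14 rose in LSECs and 0 moved in hepatocytes. Idi1, the isopentenyl diphosphate isomerase, was 8.96, 8.95 and 9.23 in 3DHL LSECs and 10.10, 10.12 and 10.27 in 3DHLK LSECs, while the hepatocyte arrays of both models overlapped (8.63 to 9.04 and 8.43 to 9.05). Its difference was 1.20 ± 0.31 (limma, adjusted p = 0.0139), and a second probe set gave 1.44. Acat2, the thiolase of the first step, rose by 0.88 in LSECs and stood at -0.06 in hepatocytes.

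Fatty acid oxidation followed, with 9 of 21 mitochondrial and 5 of 24 peroxisomal genes called, all higher in LSECs, and medians of 0.52 and 0.42. Cpt2, the inner carnitine palmitoyltransferase, read 9.10, 9.06 and 9.32 in 3DHL LSECs and 10.14, 10.14 and 10.12 in 3DHLK LSECs. Its hepatocyte arrays read 10.35 to 10.56 without and 10.28 to 10.55 with KCs, so the LSEC fraction with KCs came near the hepatocyte level. Pex11a, a peroxisome division factor, rose by 1.16 in LSECs with an uncalled 0.01 in hepatocytes. Ppara, the nuclear receptor that drives these genes, rose from between 7.95 and 8.36 to between 8.75 and 8.91 in LSECs with an uncalled -0.36 in hepatocytes, a difference of 1.08 ± 0.24 (limma, adjusted p = 0.00407); the LSEC rise of 0.72 fell short of the threshold without replicate 3 of 3DHL LSECs (0.62, adjusted p = 0.0543). Its partner Rxra rose by 0.80 in LSECs. The PPAR list held calls in both directions, 7 higher and 2 lower in LSECs of 31, the lower ones being Lpl and Fabp4.

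Urea cycle and amino acid catabolism had 8 of 45 genes called, all higher in LSECs, and 22 that rose in LSECs against 0 in hepatocytes. Of all genes, 3.51% had a difference called higher in LSECs, 3.58% rose in LSECs and 7.72% rose in hepatocytes. Otc, the ornithine carbamoyltransferase of the urea cycle, rose from a mean of 9.14 to one of 10.58 in LSECs and lay at 8.01 to 8.61 and 8.34 to 8.78 in hepatocytes. Got1, a cytosolic aspartate aminotransferase, rose by 1.06 in LSECs. Without the KC monolayers 19 of the 45 were called, and 28 rose in LSECs while 8 rose and 4 fell in hepatocytes. In that fit, 1632 of all 14217 genes had a difference called higher in LSECs and 1410 a lower one. The LSEC change rose for 1241 genes there, and the hepatocyte change rose for 1482 and fell for 1553. The respiratory chain list had 6 of 37 called higher in LSECs, and 15 without the KC monolayers. Of 27 hepatocyte markers, 2 had a difference called higher in LSECs (Apoa2 and Asgr2), 1 lower (Cyp2e1) and 24 none, with 8 higher and 1 lower without the KC monolayers, and their part in these results was not tested. The call of Asgr2 was lost without replicate 2 of 3DHL hepatocytes (0.73, adjusted p = 0.052), with cyclic loess (0.72, adjusted p = 0.0949) and with housekeeping centring (0.67, adjusted p = 0.115).

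Of the genes that rose in LSECs only and whose hepatocyte interval lay within -1 to 1, Sult2a2, a bile acid and steroid sulfotransferase, rose most. It was 9.04, 9.37 and 9.45 in 3DHL LSECs and 11.31, 11.46 and 11.65 in 3DHLK LSECs, with hepatocytes at 10.47 to 11.06 and 10.75 to 11.28. Its LSEC change was 2.19 ± 0.19 (limma, adjusted p = 3.07e-07) and its hepatocyte change 0.26 ± 0.19. Pemt, which methylates phosphatidylethanolamine to phosphatidylcholine, rose by 1.96, Cyp3a23-3a1, a drug-metabolising P450, by 1.92, Hrg, a plasma glycoprotein, by 1.79, and Csad, a taurine synthesis enzyme, by 1.70. Cyp1a1, the P450 induced through the aryl hydrocarbon receptor, rose from 6.44, 6.6 and 6.63 to 9.54, 8.21 and 9.31 in LSECs and read 11.99 to 12.14 and 11.08 to 11.65 in hepatocytes. Its hepatocyte change of -0.71 was not called (adjusted p = 0.145), while the difference of 3.17 ± 0.43 was.

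Immediate early genes, which encode factors that respond within minutes to stimulation or stress, had 7 of 27 called, all higher in LSECs. The share called higher over all genes was 3.51%. Of the 7 called, Fos rose most in LSECs, from 7.20, 7.53 and 7.29 in 3DHL LSECs to 10.50, 10.66 and 10.74 in 3DHLK LSECs. It also rose in hepatocytes, from 5.83, 6.69 and 6.75 to 7.41, 8.04 and 8.16, so the difference of 1.85 was between rises of 3.30 and 1.45. A second Fos probe set gave an LSEC change of 0.44 and a hepatocyte change of -0.21, neither called. Fosb was called in LSECs only, with a rise from between 4.88 and 5.22 to between 7.32 and 7.71. Its hepatocyte arrays overlapped, at 4.43 to 5.65 without and 4.56 to 5.90 with KCs. Egr2 (1.07), Maff (0.63) and Ier2 (0.58) were the other genes of this list that rose in LSECs only, and Jun and Atf3 fell in hepatocytes only, by 0.70 and 0.83. These genes other than Fos and Fosb were named after their values were seen.

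The start regions shown were picked, after the search, because they held a motif: those of the immediate early genes Egr2, Ier2 and Maff, of the oxidative stress gene Srxn1 and of Ltbp1 of the opposite class. That of Fosb, which also rose in LSECs only, held none of the 3 motifs. They are RefSeq sequences of build GRCr8, 250 bases before and 50 after the start of the gene: Egr2 at chr20:21054392-21054691 on the minus strand, Ier2 at chr19:40399123-40399422 on the plus strand, Maff at chr7:112792537-112792836 on the plus strand, Srxn1 at chr3:161064562-161064861 on the plus strand and Ltbp1 at chr6:26177252-26177551 on the minus strand. Capitals mark a motif found on either strand. The AP-1 motif is TGACTCA. On the other strand its letters appear as TGAGTCA. The cyclic AMP response element is TGACGTCA, which reads alike on both strands, and the third motif is the CArG box. No base belonged to more than 1 motif in these windows.
Egr2: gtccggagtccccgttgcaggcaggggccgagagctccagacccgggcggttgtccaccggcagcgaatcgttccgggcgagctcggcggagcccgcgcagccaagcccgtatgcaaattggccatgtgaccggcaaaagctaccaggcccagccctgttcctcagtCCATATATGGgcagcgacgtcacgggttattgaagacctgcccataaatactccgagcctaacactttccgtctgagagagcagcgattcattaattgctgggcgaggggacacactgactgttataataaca
Ier2: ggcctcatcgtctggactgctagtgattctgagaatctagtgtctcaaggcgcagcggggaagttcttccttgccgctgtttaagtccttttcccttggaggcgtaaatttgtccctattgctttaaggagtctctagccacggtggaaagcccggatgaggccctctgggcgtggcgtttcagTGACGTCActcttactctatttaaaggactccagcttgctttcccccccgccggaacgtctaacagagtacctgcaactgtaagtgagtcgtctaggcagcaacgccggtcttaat
Maff: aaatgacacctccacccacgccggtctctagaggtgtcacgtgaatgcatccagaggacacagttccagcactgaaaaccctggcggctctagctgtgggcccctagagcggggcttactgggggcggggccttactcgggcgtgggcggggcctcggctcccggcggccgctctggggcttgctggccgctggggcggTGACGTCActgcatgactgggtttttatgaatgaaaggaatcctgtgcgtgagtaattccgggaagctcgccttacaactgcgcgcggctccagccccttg
Srxn1: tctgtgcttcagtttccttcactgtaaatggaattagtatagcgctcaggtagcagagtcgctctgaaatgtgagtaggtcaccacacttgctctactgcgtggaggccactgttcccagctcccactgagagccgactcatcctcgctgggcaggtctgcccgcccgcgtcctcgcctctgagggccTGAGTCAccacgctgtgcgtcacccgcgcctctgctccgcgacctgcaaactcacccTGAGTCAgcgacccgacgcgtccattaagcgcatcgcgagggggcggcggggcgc
Ltbp1: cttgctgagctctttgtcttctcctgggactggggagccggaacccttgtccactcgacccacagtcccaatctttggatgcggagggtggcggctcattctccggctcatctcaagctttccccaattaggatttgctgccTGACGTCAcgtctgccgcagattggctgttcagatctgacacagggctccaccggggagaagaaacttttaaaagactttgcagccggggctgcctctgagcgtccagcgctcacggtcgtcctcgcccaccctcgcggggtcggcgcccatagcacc

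The CArG box of Egr2 began 83 bases before the start, and the cyclic AMP response element began 66 bases before it in Ier2, 51 in Maff and 108 in Ltbp1. Srxn1 held the AP-1 letters at 62 and at 5 bases before the start. Among 27457 promoters of this length, 4.53% held the AP-1 letters, 1.91% the cyclic AMP response element and 1.64% a CArG box, and among the 11733 of genes tested these shares were 3.80%, 2.86% and 1.35%. Of the 18 immediate early genes with a promoter in the table, 4 held the cyclic AMP response element, 5 a CArG box and 0 the AP-1 letters. Apart from Egr2, Ier2 and Maff, the holders of a motif in this list had no called difference. In the class that rose in LSECs only, 12 of 186 promoters held the AP-1 letters (6.45%), 7 the cyclic AMP response element (3.76%) and 1 a CArG box (0.538%). In the classes down in LSECs only, up in hepatocytes only and down in hepatocytes only, the AP-1 shares were 5.06%, 4.37% and 5.0%. Those of the cyclic AMP response element were 1.9%, 0.795% and 8.0%, and those of the CArG box 2.53%, 1.79% and 3.0%. Of 41 promoters of the opposite genes that fell in LSECs, 1 held the cyclic AMP response element (2.44%), that of Ltbp1, 1 a CArG box (2.44%) and 0 the AP-1 letters. A match describes letters in a window and is not a measured site.

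The 190 genes that fell in LSECs only, of 14217 tested, included 10 of the 43 of the actin and focal adhesion list and 8 of the 29 of the proliferation list. Over all genes, 3.89% fell in LSECs and 6.81% had a difference called lower in LSECs. The actin cytoskeleton and focal adhesion list had 20 of 43 genes called, all lower in LSECs, with a median difference of -0.71, and it moved from both sides, since 16 fell in LSECs and 12 rose in hepatocytes. Tagln, the smooth muscle actin-binding protein transgelin, was 10.91, 10.71 and 10.86 in 3DHL LSECs and 9.10, 6.78 and 6.90 in 3DHLK LSECs, a change of -3.23 ± 0.46 (limma, adjusted p = 8.59e-05). Its hepatocyte arrays read 10.12 to 10.42 and 10.44 to 11.24, a change of 0.67 that was not called. Tpm2, a tropomyosin, rose by 2.54 in hepatocytes, though its called difference of -3.03 missed the threshold without replicate 1 of 3DHL LSECs (-2.98, adjusted p = 0.0509) or replicate 2 of 3DHLK LSECs (-2.93, adjusted p = 0.0521). Tln1, which links integrins to actin, Rock2, a kinase of actomyosin contraction, and Asap1 were in the opposite class, with LSEC falls of 0.61, 0.82 and 1.02 and hepatocyte rises of 0.51, 0.74 and 0.81.

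Of 29 proliferation genes, 11 had a called difference and 11 fell in LSECs, with none that rose there. Mki67, the nuclear antigen of dividing cells, was 8.22, 8.07 and 8.15 in 3DHL LSECs and 6.93, 5.98 and 6.87 in 3DHLK LSECs. It stood at 8.28 to 8.47 and 8.70 to 9.01 in hepatocytes, and the difference was -2.00 ± 0.37 (limma, adjusted p = 0.000743). The largest falls in LSECs only by the naming rule were those of Pla2r1, the receptor of secreted phospholipase A2, from between 9.07 and 9.40 to between 5.63 and 7.59, and of Serpinb9, an inhibitor of granzyme B, from between 11.26 and 11.34 to between 8.39 and 9.83. Hepatocyte levels of Serpinb9 were 11.04 to 11.23 and 11.13 to 11.22, and its second probe set fell by 2.52 in LSECs. Cav1, the coat protein of caveolae, fell by 2.20 and Plat, the tissue plasminogen activator, by 2.17. Of 2 further Cav1 probe sets, 1 gave a called LSEC change of -1.70 and the other -0.80, not called.

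Rises called in the hepatocyte fraction only formed the largest class, 654 genes, and reached larger changes than any class led by LSECs. Scara5, a ferritin receptor of mesenchymal cells, read 6.29, 4.31 and 5.96 in 3DHL hepatocytes and 10.68, 10.94 and 10.59 in 3DHLK hepatocytes, and 4.36 or less on the LSEC arrays. Lpl, the lipase that frees fatty acids from lipoproteins, rose from 6.82, 5.75 and 5.56 to 11.13, 11.33 and 11.13, with LSEC arrays at 5.01 to 5.58. Lum, the collagen-binding proteoglycan lumican, rose from between 3.51 and 3.80 to 9.31, 8.71 and 7.64, with LSEC arrays at 3.53 to 3.81. The changes were 5.22, 5.16 and 4.95, each with a limma adjusted p of at most 6.12e-11, and Srpx, Vegfd, Mfap5, Prl8a2, Rgcc and Mnda rose by 4.17 to 4.97. A second, dim probe set of Mnda gave 0.19 in hepatocytes, not called.

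Markers of other cell types moved with this class. Over all genes, 7.72% rose in hepatocytes and 6.81% had a difference called lower in LSECs. Of 26 stellate cell and fibroblast markers, 18 rose in hepatocytes and 13 had a called difference, all lower in LSECs, with a median difference of -2.05. Dcn and Pdgfra, further markers of this list named after their values were seen, rose by 3.80 and 4.01. Of 23 macrophage markers, 14 rose in hepatocytes and 2 in LSECs. Ctss, the macrophage protease cathepsin S, rose from 6.24, 7.6 and 7.01 to 9.81, 9.46 and 9.92 in hepatocytes with an uncalled 0.73 in LSECs, with 12.27 to 12.80 in KC monolayers. Its called difference of -2.04 missed the threshold without replicate 1 of 3DHL hepatocytes (-1.69, adjusted p = 0.0553). Cd14, the endotoxin co-receptor, was the macrophage marker of the other direction, with a rise of 0.90 in LSECs and an uncalled 0.10 in hepatocytes. Of 27 endothelial markers, 8 rose in hepatocytes and 5 had a called difference, lower in LSECs. These included the angiopoietin receptor Tek (2.29 in hepatocytes, 0.11 in LSECs) and the mannose receptor Mrc1 (2.62 and 0.44). Mrc1 read 11.28 to 11.56 on the KC monolayers, and the median hepatocyte change of the endothelial list was 0.05. Lymphocyte, neutrophil and mast cell, and erythroid markers had 0 called differences of 12, 9 and 5. The part of these cell types in the hepatocyte-only rises was not tested.

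Sex chromosome genes stood beside this. Eif2s3y, which lies on the Y chromosome, read 3.5, 3.56 and 3.48 in 3DHL hepatocytes and 8.46, 8.18 and 8.19 in 3DHLK hepatocytes. It read 3.42 to 3.49 on all 6 LSEC arrays, 3.52 and 3.41 on the KC arrays of 3DHLK, and 9.56, 8.36 and 9.49 on the KC monolayers. Xist, the RNA of the inactive X chromosome, read 10.64 to 10.76 in 3DHL hepatocytes and 9.96 to 10.26 in 3DHLK hepatocytes, 11.45 to 12.02 and 10.25 to 10.47 in LSECs, and 3.90 to 4.66 on the KC monolayers. The called difference of Xist, -0.87, was not seen in its 3 other probe sets, which gave -0.43 to 0.05.

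**Figure D4:**
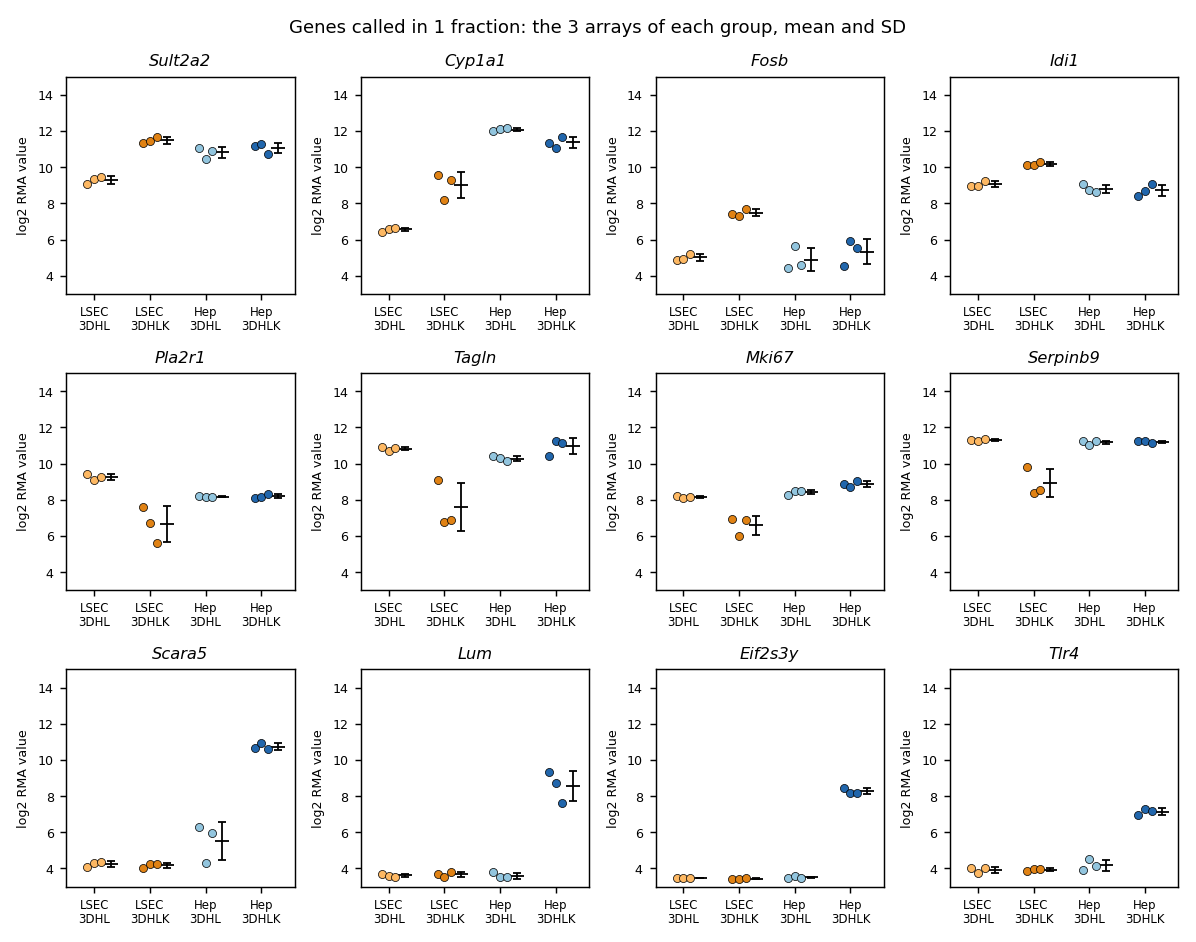
Log2 RMA values of 12 genes called in 1 fraction; points are the 3 arrays of each group, and the bar beside them is the mean with its SD. The first row rose in LSECs only, the second fell in LSECs only, and the third rose in hepatocytes only.

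The 131 genes that fell in hepatocytes only changed by less, with a median of -0.51 and a lowest value of -1.13. Aldh3a1, an aldehyde dehydrogenase, was 10.21, 10.12 and 10.18 in 3DHL hepatocytes and 9.20, 9.52 and 9.27 in 3DHLK hepatocytes, and 6.45 to 6.97 and 6.84 to 7.20 in LSECs, where the arrays overlapped. Chek2, a DNA damage checkpoint kinase, fell by 0.90, Hs3st2, a heparan sulfate sulfotransferase, by 0.87, and Rragd, a GTPase of amino acid sensing, by 0.87.

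Other liver lists are set beside the shares over all genes, 3.51% called higher and 6.81% lower in LSECs. Cytochrome P450 enzymes had 4 differences called higher and 5 lower in LSECs of 35, with Cyp1a1 and Cyp3a23-3a1 on the first side and Cyp1b1, a P450 of mesenchymal cells, on the second: Cyp1b1 read 6.62 to 8.28 and 10.37 to 10.68 in hepatocytes and 5.44 to 5.81 in LSECs. Conjugation enzymes had 7 called higher of 32 and 1 lower, Adh7. Without the KC monolayers 12 of them were called higher, beside 1632 of all 14217 genes in that fit. Glutathione and Nrf2 defence had 8 higher of 32 and 1 lower, Gpx3; Srxn1, which repairs oxidised peroxiredoxins, rose from between 10.85 and 11.08 to between 11.67 and 11.94 in LSECs with an uncalled -0.52 in hepatocytes, a difference of 1.41 ± 0.25 (limma, adjusted p = 0.000522). A second bright Srxn1 probe set was called in opposite directions, with 0.96 in LSECs (limma, adjusted p = 0.0202) and -0.90 in hepatocytes (limma, adjusted p = 0.0198). In bile acid synthesis and transport 1 of 25 was higher and 2 were lower, close to the shares over all genes. The higher one, Slc10a1, the bile salt uptake carrier, rose in both fractions, by 1.91 in LSECs and 1.07 in hepatocytes. Its difference of 0.84 missed the threshold without replicate 3 of 3DHL hepatocytes, of 3DHLK hepatocytes or of 3DHLK LSECs (0.65 to 0.77, adjusted p of 0.0615 to 0.0704). The other carrier Slco1b2 rose by 1.98 in hepatocytes and stood at 8.63 in 3DHL and 8.54 in 3DHLK LSECs. Cyp7a1, the rate-limiting enzyme of bile acid synthesis, rose by 1.74 in hepatocytes with an uncalled 0.81 in LSECs, with no call of the difference (-0.93, limma adjusted p = 0.143). Acute phase, complement and coagulation genes had 3 higher and 8 lower of 47, the lower ones led by the complement protease C1s (2.16 in hepatocytes, -0.14 in LSECs) and the protease inhibitor A2m (1.64 and -0.08), and C4bpb, a complement regulator, rose by 2.06 in LSECs.

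Inflammatory lists are set beside the same shares over all genes, 3.51% higher and 6.81% lower. Of 28 chemokines, 7 had a called difference, all lower in LSECs; beside Ccl2 they included Ccl7, which rose from between 6.76 and 7.04 to between 9.48 and 10.07 in hepatocytes with an uncalled -0.18 in LSECs. Of 32 inflammatory cytokine and endotoxin sensing genes, 3 were higher and 5 lower. Il1rn, the interleukin-1 receptor antagonist, rose from 9.26, 9.37 and 9.58 to 10.63, 11.10 and 11.06 in LSECs with an uncalled 0.53 in hepatocytes. Tlr4, the endotoxin receptor, rose from 3.91, 4.50 and 4.14 to 6.94, 7.31 and 7.17 in hepatocytes and stayed at 3.75 to 4.01 on the LSEC arrays, where KC monolayers averaged 7.33. Interferon response genes had 1 called difference of 22, Isg15, and antigen presentation 1 of 14, Ctss.

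**Figure D5:**
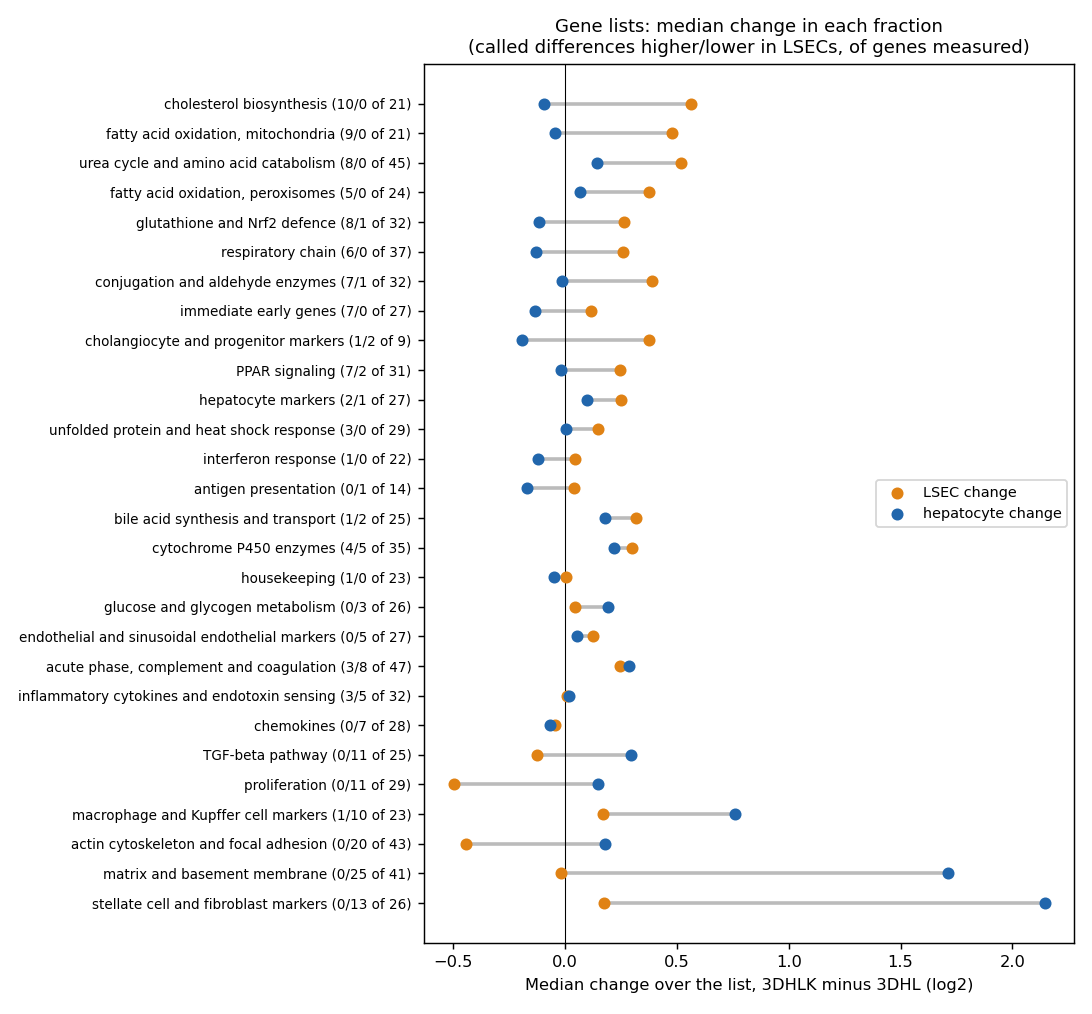
Median log2 change of 28 gene lists in LSECs (orange) and hepatocytes (blue), ordered by the median difference, with the number of called differences higher and lower in LSECs and of genes measured beside each name. Cholesterol, fatty acid oxidation and urea cycle lists lie to the right in LSECs, and the stellate cell, matrix and macrophage lists to the right in hepatocytes.

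The remaining called differences were 12 genes with calls in the same direction and 207 in which neither change was called alone. The same-direction genes included Xdh, the xanthine dehydrogenase of purine breakdown, which rose by 0.67 in LSECs and 3.23 in hepatocytes, Adh7 (1.12 and 2.29) and Fabp1, the liver fatty acid binding protein (1.84 and 0.75). The 207 had a median LSEC change of 0.28 and a median hepatocyte change of -0.26, and 4 of the 6 called respiratory chain genes were among them.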

How the data were processed

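RNA of 23 samples had been hybridised to Affymetrix rat genome arrays, and the authors deposited log2 expression values per probe set after RMA (background correction, quantile normalisation and summarisation; version not given in the sources used here). Because RMA gives all arrays 1 distribution, changes are relative to the other genes of an array, and arrays carry no read depth, so that the number of arrays limits the precision. The medians of the 12 arrays compared were 7.46 to 7.53 and replicates correlated at 0.988 to 0.996. Of 31099 probe sets, 57 were controls, 20826 named 1 gene, 436 several and 9780 none in the platform annotation, with 0 symbols changed by the current RefSeq names. For each of 14217 genes, the probe set brightest on average across the 23 arrays was used. In limma 3.58.1 (R 4.3.3), 1 mean was fitted for each of 8 groups, with eBayes and Benjamini-Hochberg adjustment over all genes. The difference, the LSEC change and the hepatocyte change were contrasts of this fit, tested first on simulated data. The threshold was an adjusted p of 0.05. Named genes were the 10 opposite genes of each orientation with the largest smaller change (9 in 1 orientation), the 6 largest rises and falls in LSECs only and the 10 largest in hepatocytes only whose other change had its 95% interval within -1 to 1, the 2 largest called differences of each direction in each list, the 2 highest markers of each cell type, Xist, Eif2s3y, Ppara, Cyp7a1 and Vwf. Asap1, Atf3, Dcn, Egr2, Fabp1, Hspg2, Ier2, Jun, Maff, Pdgfra, Rock2, Timp2, Tln1 and Xdh were named outside this rule, after their values were seen. Genes, lists and tests were chosen with earlier results of these data known. Lists are described by counts and medians only. Promoters were matched by symbol for 11733 of 14217 genes. Deviations from the group means correlated at -0.23 to 0.11 between arrays of the same replicate number, over 0.1 in 2 of 18 pairs. Low correlations do not show that the samples were unpaired. No block was fitted in the main analysis, and a replicate block was among the alternatives.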

Additional observations from a re-analysis of the deposited data

Results flagged for a closer look

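Each group held 3 arrays, too few for a search for outlying samples. The response to KCs differed between the fractions by the test of the difference itself for 1467 genes, 499 with a difference higher in LSECs and 968 with a lower one. Of the 63 genes whose change was also called in both fractions in opposite directions, the 9 that rose in LSECs and the 10 of the other orientation with the largest smaller change are listed here with that difference. Higher in LSECs were Cldn4 (2.04), Pfkfb2 (1.40), Apeg3 (1.16), Gnpnat1 (1.16), Plekhb1 (0.99), Gsr (0.95), Acadsb (0.79), Mpp4 (0.71) and Dgat2 (0.67). Lower in LSECs were Ccl2 (-4.38), Igfbp7 (-4.30), Lox (-4.23), Slc28a2 (-3.59), Serpinh1 (-3.17), Avpr1a (-3.15), Scd2 (-3.03), Csf1 (-2.66), Tgfb3 (-2.48) and F3 (-2.27). Ltbp1 (-3.32), Cyp2e1 (-2.98) and Gpx3 (-1.90) were also in this orientation.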

How the results depend on the processing

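The called differences of 87 of 108 named genes were kept under all 22 alternatives, and none of the 108 changed sign. Of all 240 called values of named genes, 193 were kept. Other single probe sets were not among the 22, and some of them lacked the call or turned the sign. The counts were less stable. Fitted to the 12 arrays compared, 1497 differences were higher in LSECs; 1196 LSEC changes rose and 1108 fell, 1487 hepatocyte changes fell, and the classes held 86 opposite genes up and 154 down in LSECs, 568 up and 355 down in LSECs only, 501 down in hepatocytes only, 48 in the same direction and 404 by the difference only. Without the KC monolayers these were 1632, 1241, 1094, 1553, 96, 151, 606, 351, 535, 43 and 465. With a replicate block and the 12 arrays they were 1178, 1024, 973, 1143, 44, 142, 472, 323, 368, 41 and 357; with a replicate block over 23 arrays, 419 differences were higher and 942 lower, within 1.5 times the counts without it, and 59 of the 63 opposite genes were shared. With array weights they were 2463, 2258, 1691, 1617, 196, 220, 1146, 538, 598, 94 and 571, with 1751 differences lower in LSECs. The share of higher calls was 51.5%, 53.6%, 46.8% and 58.4% in the fit to 12 arrays, without the KC monolayers, with the block on 12 arrays and with array weights, against 34.0%. Weights of single arrays ran from 0.055 to 36.3. Centred on the housekeeping list, 309 differences were higher (19.8%), 837 LSEC changes fell, and the classes held 5 and 97 opposite genes up and down in LSECs, 317 down in LSECs only and 69 down in hepatocytes only. Cyclic loess gave 95 opposite genes down in LSECs and 22 in the same direction. The mean of all probe sets gave 15 opposite genes up in LSECs, and the filter on low values, which tests fewer genes, gave 707 hepatocyte rises and 401 in hepatocytes only. The trended, robust fit kept every count within 1.5 times. An adjusted p of 0.01 left 0 and 20 opposite genes, 72 and 88 in LSECs only, 23 down in hepatocytes only, 3 in the same direction and 74 by the difference only. A floor of a log2 change of 1 left 0 and 12, 50 and 85, 5, 4 and 843. The causes of these moves were not tested. With 1 array left out, the counts ran from 262 to 564 for higher and 751 to 979 for lower differences, 264 to 512 for LSEC rises, 295 to 553 for LSEC falls, 863 to 1070 for hepatocyte rises, 222 to 618 for hepatocyte falls, 3 to 11 and 30 to 59 for the opposite classes up and down in LSECs, 108 to 201 and 101 to 204 in LSECs only, 509 to 666 and 54 to 210 in hepatocytes only, 4 to 22 in the same direction and 111 to 209 by the difference only. The opposite class held 33 genes without replicate 1 of 3DHL LSECs, 38 without replicate 2 or replicate 3 of 3DHLK LSECs and 41 without replicate 2 of 3DHL hepatocytes. Other probe sets turned the sign for Pfkfb2 (difference -0.16, LSEC change -0.15, hepatocyte change 0.0069), Mnda (difference 0.0133), Mid1 (difference -0.13), Fos (hepatocyte change -0.21), Masp2 (difference -0.17) and Xist (difference 0.0488). No neutrophil and mast cell marker passed the filter on low values, so that list has no value there.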
